A study of Mus musculus with 16 samples.

Results

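The genes described here are 40 mouse genes of the endoplasmic reticulum (ER) that fold, modify, export or degrade secretory proteins, or that sense misfolded protein, in 16 small intestinal organoid cultures. They were taken by name from a list of ER folding, degradation, transport and stress sensor genes that was drawn up with earlier results of these data known, by a rule that names no measured value, and all 40 were found among the 49585 genes of the count table. Of these, 39 passed the filter on low counts and were tested. The exception was Derl3, a Derlin family member of ER-associated degradation, which had 0 to 5 reads per culture.

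Organoids are epithelial cultures grown in Matrigel from intestinal crypts. They came from Atg16l1 ΔIEC mice, in which Cre driven by the villin promoter deletes the floxed autophagy gene Atg16l1 in intestinal epithelial cells, or from Cre-negative Atg16l1 fl/fl mice, and were left untreated or given recombinant murine IL-22 at 10 ng/ml for 24 h. Each of the 4 groups held 4 cultures, which by the label numbers are 2 cultures from each of 2 organoid lines. The first line gave replicates 1 and 2 and the second gave replicates 3 and 4, with the same lines in treated and untreated groups, so p-values measure the spread between cultures of 2 lines and not between many mice. The age of the mice is not in the labels.

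The ER folds most proteins that a cell secretes or places in its membranes. When unfolded protein builds up, the sensors IRE1 (Ern1, and Ern2 in mucosal epithelium), ATF6 and PERK (Eif2ak3) start the unfolded protein response. IRE1 splices the mRNA of Xbp1 into a form that encodes an active transcription factor, ATF6 is cut in the Golgi to release another, and PERK lowers translation and raises ATF4. Their targets include chaperones, disulfide isomerases, the machinery that retrotranslocates and degrades misfolded protein, and the translocon and vesicle coats. In the intestine this response is best known for the secretory Paneth and goblet cells. The study asked how IL-22 acts on epithelium that lacks Atg16l1, and ER stress was among the responses it considered.

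Promoter sequence was examined because ATF6 and XBP1 bind known elements. The ER stress response element, ERSE, was searched on both strands as CCAAT and CCACG with 9 bases of any kind between them, in RefSeq windows (GRCm38.p6) from 250 bases before to 50 bases after each start. It was in 39 of 32851 windows (0.119%). Of the members, 31 had a window, and 9 of these held ERSE, namely Hspa5, Hsp90b1, Dnajc3, Creld2, Calr, Canx, Pdia6, Syvn1 and Derl3. The XBP1-associated UPR element, UPRE, was searched as TGACGTGG, which was in 222 windows (0.676%), and the members with it were Sec24d and Kdelr3. The related ERSE-II, searched as ATTGG and CCACG with 1 base between them, was in 12 windows (0.0365%), and the members with it were Dnajb11 and Herpud1. The 3 elements share the letters CCACG or their reverse complement. No window was matched for Atf6, Derl1, Kdelr2, Ern2, Spcs3, Ostc, Hyou1, Manf or Sec61a1. The stretches below are shown for ERSE members that rose with IL-22, for Canx and Pdia6, and for the pair with UPRE. Canx, Pdia6 and Syvn1 hold ERSE and did not pass the IL-22 test in either genotype. Stretches of Syvn1, of Derl3, which was not tested, and of the ERSE-II pair are not shown. The fixed letters of the element are in capitals on the strand of the gene. Where the match is on the other strand it reads CGTGG to ATTGG, or CCACGTCA.
Hspa5, chr2:34772020-34772048, plus strand: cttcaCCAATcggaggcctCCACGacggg
Hsp90b1, chr10:86705628-86705666, minus strand: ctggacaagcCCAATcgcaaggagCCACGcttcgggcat
Hsp90b1, chr10:86705523-86705561, minus strand: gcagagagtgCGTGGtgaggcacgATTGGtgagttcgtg
Dnajc3, chr14:118937817-118937855, plus strand: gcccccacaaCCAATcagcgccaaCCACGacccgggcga
Creld2, chr15:88819510-88819548, plus strand: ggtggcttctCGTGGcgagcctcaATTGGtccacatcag
Calr, chr8:84847065-84847103, minus strand: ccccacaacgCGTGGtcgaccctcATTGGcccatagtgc
Canx, chr11:50325790-50325828, minus strand: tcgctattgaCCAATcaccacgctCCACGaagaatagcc
Pdia6, chr12:17266481-17266519, plus strand: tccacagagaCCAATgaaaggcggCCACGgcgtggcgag
Sec24d, chr3:123267460-123267487, plus strand: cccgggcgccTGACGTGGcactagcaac
Kdelr3, chr15:79516368-79516395, plus strand: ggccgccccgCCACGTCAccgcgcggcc

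Hspa5 and Sec24d carried the element inside the first exon of a GENCODE transcript, and the other stretches lay outside the exons of their own gene. A match describes letters in a window and does not show binding.

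Gene reads per culture ranged from 2135000 to 5574860, and values are CPM, which scales each culture's reads to the same TMM-adjusted total. Atg16l1, the deleted gene, had 31.6 to 49.2 CPM in the fl/fl cultures without and 39.2 to 51.8 CPM in those with IL-22. In ΔIEC cultures it was at 1.21 to 4.15 CPM untreated and at 0.289 to 5.96 CPM with IL-22, so no ΔIEC culture overlapped an fl/fl culture. The summed level of 6 epithelial markers was at least 5955 CPM in every culture, whereas 6 immune and 6 stromal markers summed to at most 5.79 and 3.94 CPM. Among the ΔIEC cultures with IL-22, replicate 1 stood above the others in several members, and results that rest on it are given without it.

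Per length of exon, the folding enzymes were the most abundant members and the sensors among the least. P4hb, which encodes protein disulfide isomerase, led untreated fl/fl cultures at 586 ± 50.9 RPKM (SD, n = 4), which is CPM per kilobase of exon. Calr, the lectin chaperone calreticulin, followed at 200.5 ± 9.19 RPKM and Pdia3, the isomerase that works with it, at 176 ± 8.17 RPKM, a gap larger than the sum of their SDs. Hspa5, which encodes the HSP70 chaperone BiP, was at 144 ± 7.04 RPKM and differed from Hsp90b1, the HSP90 chaperone GRP94, by less than the sum of their SDs (135 ± 4.14 RPKM). Xbp1 was at 51.9 ± 5.20 RPKM, above Atf6 at 8.58 ± 0.445, Ern1 at 6.35 ± 1.37, Eif2ak3 at 4.85 ± 0.321 and Ern2 at 3.38 ± 0.607 RPKM. Derl3 came last at 0.0336 RPKM.

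IL-22 raised members of this set in both genotypes and lowered none past the threshold. In fl/fl organoids 11 of 39 tested members rose and 0 fell (edgeR quasi-likelihood test, adjusted p under 0.01), where 20.8% of all 12559 tested genes were called, 10.6% higher and 10.2% lower. At an unadjusted p under 0.05 the lower members were 1 in fl/fl, the signal peptidase subunit Spcs3, and 0 in ΔIEC organoids, and DESeq2 called 0 lower in either genotype. In ΔIEC organoids 22 of 39 rose and 0 fell, where 17.5% of all genes were called, 9.83% higher and 7.65% lower. All 11 genes that rose in fl/fl organoids also rose in ΔIEC organoids, which was 100% of the fl/fl calls and 50% of the ΔIEC calls, and 7.47% of all genes were called higher in both. The median log2 fold change of the members was 0.19 in fl/fl and 0.38 in ΔIEC organoids, beside -0.05 and -0.01 for all genes. All treated cultures lay above all untreated ones for 18 members in fl/fl, which included the 11, where 15.4% of all genes did so, and for 26 in ΔIEC organoids, where 14.1% did. The reverse held for 1 member in fl/fl, against 15.4% of all genes, and for 0 in ΔIEC organoids, against 13.2%. The 26 included every called member but Ostc. Together the 40 genes took 0.811% to 0.844% of gene counts in untreated fl/fl cultures and 0.897% to 0.938% with IL-22. In ΔIEC cultures they took 0.911% to 0.974% untreated and 1.05% to 1.21% with IL-22, which was above every other culture. Enterocyte markers moved with the same treatment. The 9 enterocyte markers summed to 5621 to 6817 CPM in untreated and 1847 to 2199 CPM in treated fl/fl cultures, and to 5244 to 7024 and 1688 to 3059 CPM in ΔIEC cultures, and of the 9, 8 fell in fl/fl organoids and 6 in ΔIEC. In bulk RNA, fewer cells of a type and less RNA per cell cannot be told apart. The part of this shift in the results was not tested.

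**Figure D1:**
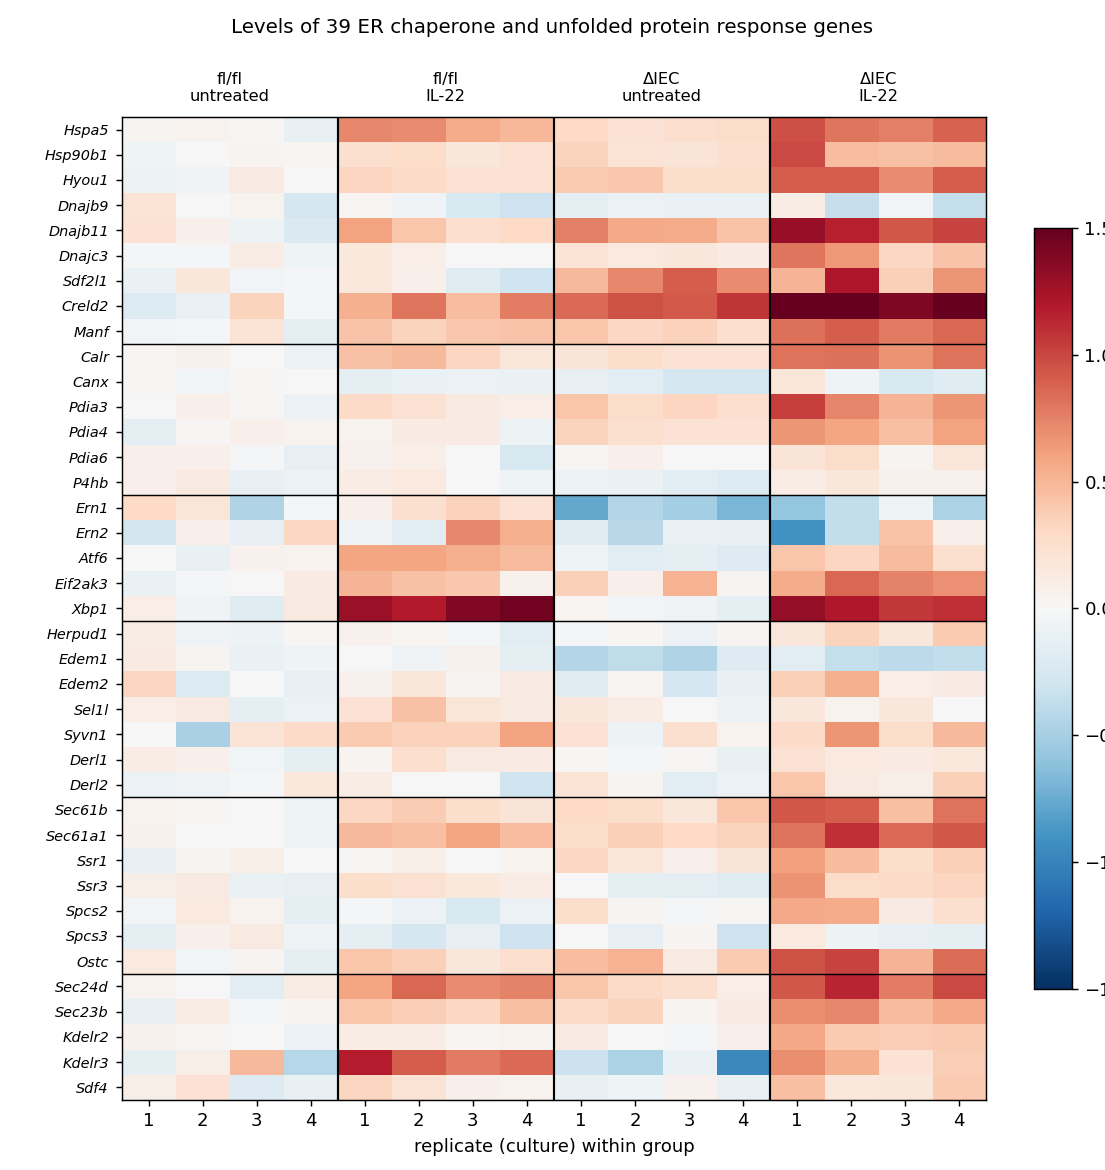
Level of the 39 tested members (rows, ordered and separated by role) in each of the 16 cultures (columns, by group), as log2 CPM minus the mean of untreated fl/fl cultures, with red higher and blue lower. Xbp1 is red in all 8 IL-22–treated cultures, and most chaperone rows are darkest in ΔIEC cultures with IL-22, where Creld2 runs to or past the end of the colour scale in most.

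Xbp1 (ENSMUSG00000020484.18, chr11:5520659-5525893), the transcription factor downstream of IRE1, showed the largest rise of any member in both genotypes. Its level in untreated fl/fl cultures was 180.3, 162, 148 and 184 CPM, and with IL-22 it was 411, 382, 440.0 and 456 CPM. In ΔIEC cultures it was 172, 163, 162 and 153 CPM untreated and 420.4, 388, 351 and 359 CPM with IL-22. Treated and untreated cultures did not overlap in either genotype, and the highest untreated culture was far under the lowest treated one. The rise was 2.50-fold in fl/fl (log2 fold change 1.32 ± 0.08 SE, adjusted p = 6.7e-10, edgeR, 4 against 4 cultures) and 2.33-fold in ΔIEC organoids (1.22 ± 0.08, adjusted p = 1.98e-09, edgeR). Gene counts do not separate spliced from unspliced Xbp1 mRNA, so IRE1 activity was not measured.

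Of the 4 sensor genes beside Xbp1, 1 rose in fl/fl and 2 in ΔIEC organoids, where 10.6% and 9.83% of all genes were called higher. Atf6 (ENSMUSG00000026663.6, chr1:170704674-170867771) was at 78.9, 73.5, 82.5 and 81.9 CPM in untreated fl/fl cultures and at 119, 119, 116 and 110.0 CPM with IL-22. In ΔIEC cultures Atf6 was at 75.7, 70.4, 71.6 and 69.4 CPM untreated and 105, 98.8, 110.0 and 93.5 CPM with IL-22. The groups were apart in both genotypes, with log2 fold changes of 0.55 ± 0.07 (adjusted p = 1.09e-05, edgeR) and 0.50 ± 0.07 (adjusted p = 3.7e-05). Eif2ak3, the PERK kinase, rose by 0.46 on the log2 scale in ΔIEC organoids (adjusted p = 0.00583, edgeR), and its value in fl/fl was 0.36 (adjusted p = 0.0282). The log2 fold changes of the IRE1 genes did not pass the test: 0.19 and 0.24 for Ern1 and 0.31 and 0.13 for Ern2 in fl/fl and ΔIEC organoids.

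Among 9 HSP70 and HSP90 chaperones and their cofactors, 4 rose in fl/fl and 7 in ΔIEC organoids. Of all genes, 10.6% and 9.83% were called higher. Hspa5 (ENSMUSG00000026864.13, chr2:34771970-34777547) was at 625, 628, 612 and 564 CPM in untreated fl/fl cultures and 998, 988, 891 and 853 CPM in fl/fl cultures with IL-22. In ΔIEC cultures Hspa5 was at 746, 704, 721 and 734 CPM untreated and at 1188, 1057, 1024 and 1122 CPM with IL-22. All treated cultures lay above all untreated ones of either genotype, a rise of 1.54-fold in fl/fl (0.62 ± 0.07 on the log2 scale, adjusted p = 2.27e-06, edgeR) and 1.51-fold in ΔIEC organoids (0.60 ± 0.07, adjusted p = 3.14e-06). Hyou1, the large HSP70-like nucleotide exchange factor of BiP, rose by 0.27 and 0.52 on the log2 scale in fl/fl and ΔIEC organoids (adjusted p = 0.00628 and 1.16e-05, edgeR). Its fl/fl call was lost without any of 7 single cultures (adjusted p up to 0.0228, edgeR). The ER stress proteins Creld2 and Manf, which are retained in or secreted from the ER, rose by 0.66 and 0.40 in fl/fl and by 0.69 and 0.51 in ΔIEC organoids.

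The rises of Hsp90b1, Dnajb11 and Dnajc3 passed this threshold in ΔIEC organoids and not in fl/fl. Hsp90b1 was 0.36 ± 0.10 higher on the log2 scale there (adjusted p = 0.00806, edgeR), with 0.23 ± 0.10 in fl/fl (adjusted p = 0.0747). Its ΔIEC level with IL-22 was 1076, 750.4, 738 and 754 CPM, and replicate 1 lay far above the others. Without that culture the difference was 0.21 (adjusted p = 0.0143, edgeR) and the call was lost. Dnajb11 and Dnajc3, J-domain co-chaperones of BiP, were higher by 0.52 and 0.40 in ΔIEC organoids (adjusted p = 0.000904 and 0.00233), against 0.38 and 0.07 in fl/fl (adjusted p = 0.0114 and 0.599). With the organoid line as a replicate block Dnajb11 passed in fl/fl too (adjusted p = 0.000136, edgeR). Dnajb9, another J-domain cofactor and a known target of XBP1, and Sdf2l1, a partner of Dnajb11, did not pass the test in either genotype. Their log2 fold changes lay between -0.15 and 0.03.

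Of 6 lectin chaperones and disulfide isomerases, 1 rose in fl/fl and 3 in ΔIEC organoids. Of all genes, 10.6% and 9.83% were called higher, so 1 of 6 in fl/fl is near that share. Calr (ENSMUSG00000003814.8, chr8:84841850-84846934) was at 588, 604, 576 and 541 CPM in untreated fl/fl cultures and 779.6, 807, 721 and 656 CPM in fl/fl cultures with IL-22, and at 659, 695, 669.9 and 669 CPM untreated and 1016, 1024, 919.9 and 1011 CPM with IL-22 in ΔIEC cultures. Groups did not overlap in either genotype, and the log2 fold changes were 0.36 ± 0.07 (adjusted p = 0.000685, edgeR) and 0.56 ± 0.07 (adjusted p = 6.6e-06). Pdia3 and Pdia4, both disulfide isomerases, rose by 0.43 and 0.33 in ΔIEC organoids, with 0.19 and 0.06 in fl/fl. Canx, the membrane-bound counterpart of calreticulin, stood at -0.10 in fl/fl and 0.13 in ΔIEC organoids. It was the single member whose fl/fl cultures with IL-22 all lay below the untreated ones, by a difference that did not pass the test (adjusted p = 0.329, edgeR). Pdia6 and P4hb were between -0.02 and 0.24 in both, and P4hb passed in ΔIEC organoids with the line as a replicate block (adjusted p = 0.000817, edgeR).

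The genes of ER-associated degradation were the one role in which no member passed the test with IL-22 in either genotype, 0 of 7 tested. Of all genes, 10.6% in fl/fl and 9.83% in ΔIEC organoids were called higher, so 0 of 7 is near that share. At an unadjusted p under 0.05 there were 2 in fl/fl and 5 in ΔIEC organoids, all higher. Of all 12559 genes, 5265 and 4827 had such a p in either direction. DESeq2 called 0 members of this role. The role includes the ubiquitin ligase Syvn1 (HRD1) with its adaptor Sel1l, the mannosidase-like lectins Edem1 and Edem2, the Derlins and Herpud1. The log2 fold changes of the 7 tested members were -0.04 to 0.40 in fl/fl and 0.04 to 0.41 in ΔIEC organoids. The largest were those of Syvn1 in fl/fl (0.40 ± 0.14, adjusted p = 0.029, edgeR) and Edem2 in ΔIEC organoids (0.41 ± 0.12, adjusted p = 0.0134). With the organoid line as a replicate block, Syvn1 and Sel1l passed in fl/fl (adjusted p = 0.00602 and 0.00556, edgeR) and Herpud1 and Edem2 in ΔIEC organoids (adjusted p = 0.00519 and 0.00172), and Herpud1 also passed in ΔIEC organoids without the block when IL-22–treated replicate 1 was left out (0.31, adjusted p = 0.00796, edgeR). Syvn1 in fl/fl and Edem2 in ΔIEC organoids passed with no filter on low counts too, both and Herpud1 passed with limma-voom, and Edem2 passed without untreated fl/fl replicate 1 or IL-22–treated ΔIEC replicate 3.

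Of 7 genes of translocation, signal cleavage and N-glycosylation, 1 rose in fl/fl and 4 in ΔIEC organoids. Of all genes, 10.6% and 9.83% were called higher, so 1 of 7 in fl/fl is near that share. Sec61a1 (ENSMUSG00000030082.14, chr6:88503579-88518905), the pore of the translocon, was at 285, 271, 273 and 260.0 CPM in untreated fl/fl cultures and 381, 372, 409 and 374 CPM in fl/fl cultures with IL-22. In ΔIEC cultures Sec61a1 was at 328, 349, 334 and 343 CPM untreated and 479, 581, 492 and 518 CPM with IL-22. The 4 groups were in steps without overlap, and the log2 fold change of IL-22 was 0.50 ± 0.07 in fl/fl (adjusted p = 2.1e-05, edgeR) and 0.61 ± 0.07 in ΔIEC organoids (adjusted p = 1.52e-06). Sec61b, another translocon subunit, Ssr3, of the translocon-associated protein complex, and Ostc, an oligosaccharyltransferase subunit, rose in ΔIEC organoids by 0.50, 0.51 and 0.45 on the log2 scale. Their fl/fl values were 0.29, 0.19 and 0.30. Ssr1 and the signal peptidase subunits Spcs2 and Spcs3 did not pass in either genotype. With the line as a replicate block Sec61b and Ostc passed in fl/fl (adjusted p = 0.00615 and 0.00241, edgeR) and Ssr1 and Spcs2 in ΔIEC organoids (adjusted p = 0.00346 and 0.00134).

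All 5 genes of ER-Golgi transport and retrieval rose in ΔIEC organoids and 3 of 5 in fl/fl organoids, where 9.83% and 10.6% of all genes were called higher. Sec24d (ENSMUSG00000039234.11, chr3:123267455-123365641), a cargo-binding subunit of the COPII coat, was at 54.1, 52.1, 46.7 and 56.4 CPM in untreated fl/fl cultures and 78.8, 95.1, 85.6 and 87.5 CPM in fl/fl cultures with IL-22. In ΔIEC cultures it was at 69.8, 63.5, 61.5 and 56.1 CPM untreated and 99.2, 115, 88.5 and 103 CPM with IL-22. No treated culture fell among the untreated ones of its genotype, and the log2 fold changes were 0.73 ± 0.10 (adjusted p = 1.1e-05, edgeR) and 0.69 ± 0.09 (adjusted p = 1.63e-05). Sec23b, its partner in the coat, rose by 0.38 and 0.41. Kdelr3, a receptor that returns KDEL-bearing chaperones to the ER, rose by 0.92 ± 0.20 and 0.87 ± 0.22, from a low level of 8 to 27 reads in untreated cultures. Kdelr2, a second such receptor, and Sdf4, a calcium-binding protein of the secretory pathway, passed in ΔIEC organoids with 0.38 and 0.35, and were at 0.08 and 0.15 in fl/fl. Without IL-22–treated ΔIEC replicate 1, the ΔIEC calls of Kdelr3 and Sdf4 were lost (adjusted p = 0.0164 and 0.0284, edgeR).

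**Figure D2:**
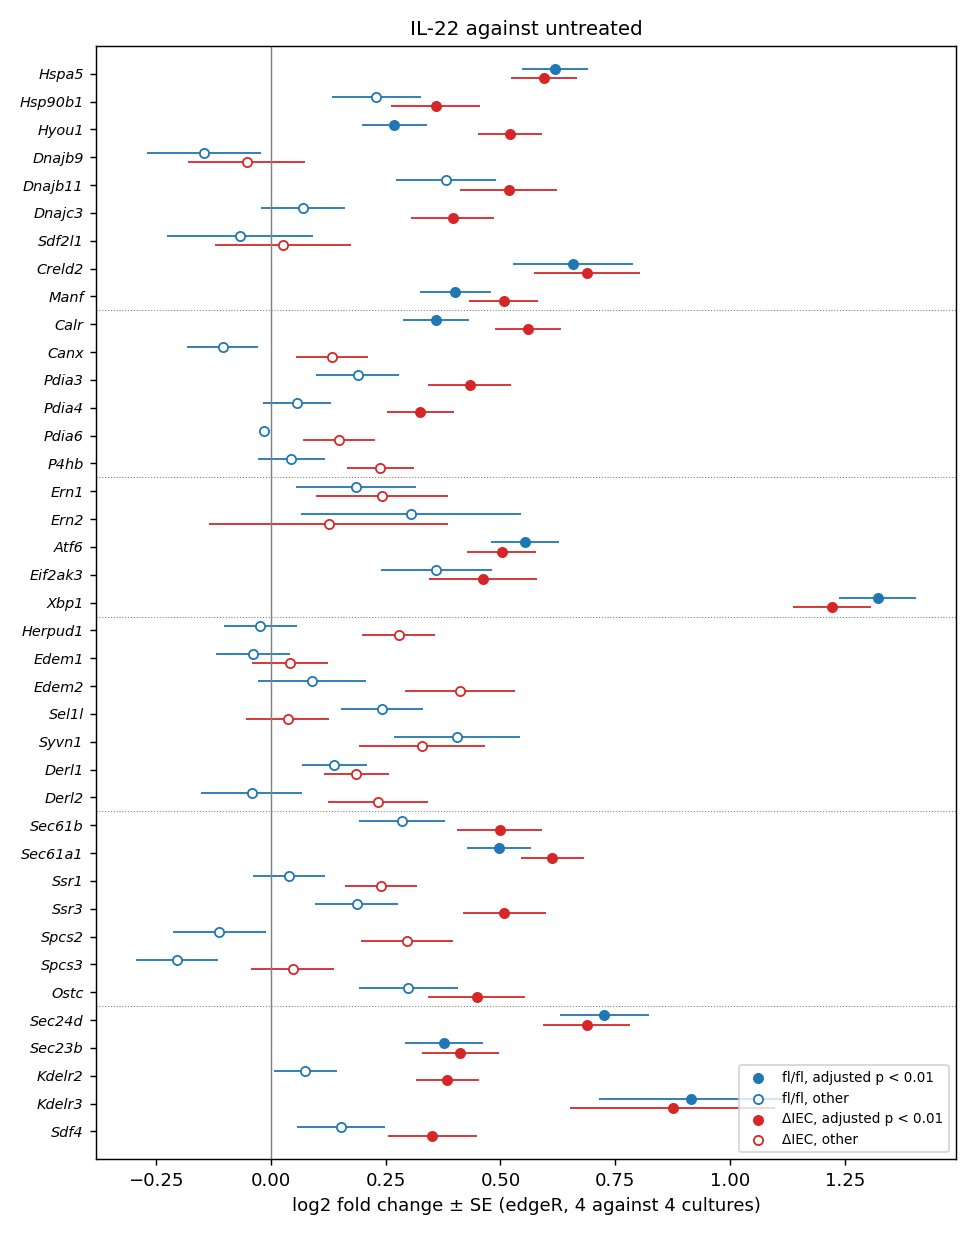
Log2 fold change of IL-22 against untreated (horizontal axis) for each tested member by role, in fl/fl (blue) and ΔIEC (red) organoids, as the edgeR estimate with its SE from 4 against 4 cultures. Filled points had an adjusted p under 0.01, 11 in fl/fl and 22 in ΔIEC organoids, all to the right of 0. SE bars were left out by rule where the estimate is very near 0.

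**Figure D3:**
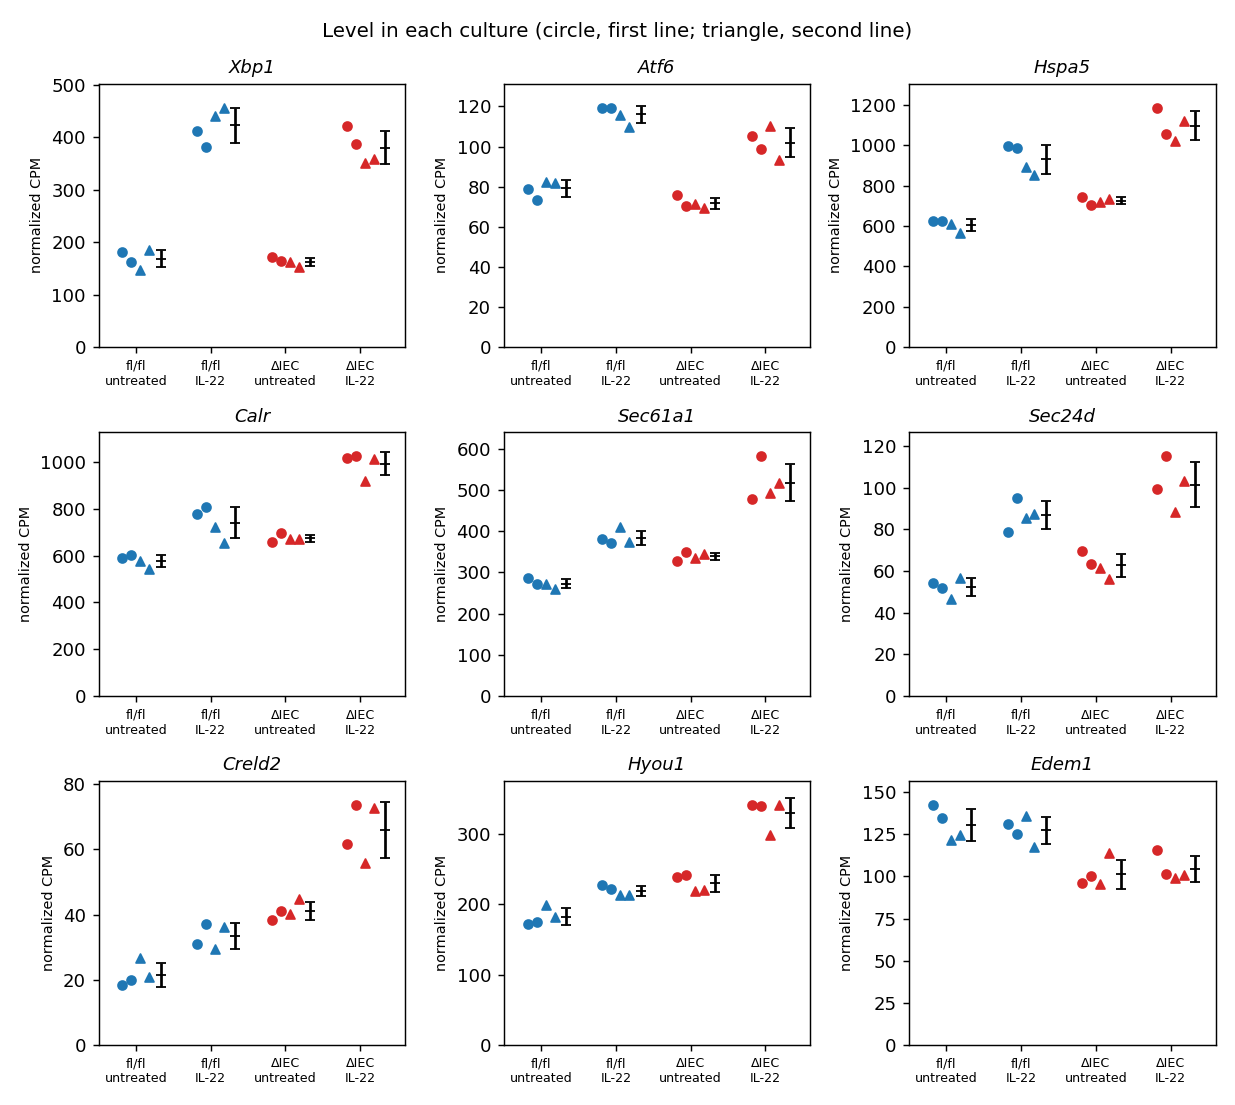
CPM after TMM scaling (vertical axes, from 0) in each culture for 9 members, with circles for the first and triangles for the second line of a genotype and bars for mean ± SD of 4 cultures. Xbp1 is at or below 184 CPM without and at or above 351 CPM with IL-22 in both genotypes, and Edem1 is lower in ΔIEC than in fl/fl cultures at either treatment.

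Members with ERSE and members without it were both among those that rose. Of 8 tested members with ERSE, 3 rose in fl/fl and 5 in ΔIEC organoids, and of 22 with a window that lacks it, 4 and 11 rose. Of all genes, 10.6% and 9.83% were called higher. The median log2 fold changes were 0.30 and 0.38 with ERSE and 0.17 and 0.34 without. Both members with UPRE, Sec24d and Kdelr3, rose in both genotypes. Of the pair with ERSE-II, Dnajb11 was called in ΔIEC organoids only and Herpud1 in neither genotype. These pairs are too small to tie a response to an element.

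Most members changed in the same direction in both organoid lines. Of the 39 tested members, 25 had higher mean CPM with IL-22 in both fl/fl lines, 10 in 1 line and 4 in neither, and 33 had it in both ΔIEC lines and 6 in 1 line. All 11 members called in fl/fl and all 22 called in ΔIEC organoids had higher mean CPM with IL-22 than without in both lines of that genotype, which the choice of called members by the same cultures favours. Xbp1 rose by 1.21 and 1.43 on the log2 scale in the first and second fl/fl line and by 1.27 and 1.17 in the ΔIEC lines. In ΔIEC organoids 17 of the 22 changes were larger in the first line, for example 0.55 against 0.30 for Pdia3. With the 2 cultures of each line summed, which leaves 2 against 2, 4 members passed in fl/fl (Xbp1, Hspa5, Atf6 and Sec24d) and 6 in ΔIEC organoids (Xbp1, Sec61a1, Sec24d, Creld2, Hspa5 and Manf). Of 13871 genes in that fit, 543 and 635 passed. Without replicate 1 of the IL-22–treated ΔIEC cultures, 20 members passed in ΔIEC organoids, 19 of them among the 22 and the other Herpud1. Of 12741 genes in that fit, 2216 passed. The calls of Hsp90b1, Kdelr3 and Sdf4 were lost, with log2 fold changes of 0.21, 0.80 and 0.30 in place of 0.36, 0.87 and 0.35. Over all single cultures left out, 5 of the 22 calls were lost at least once (Hsp90b1, Sdf4, Kdelr3, Eif2ak3 and Ostc), with adjusted p up to 0.034 (edgeR), and in fl/fl that of Hyou1, with adjusted p up to 0.0228.

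**Figure D4:**
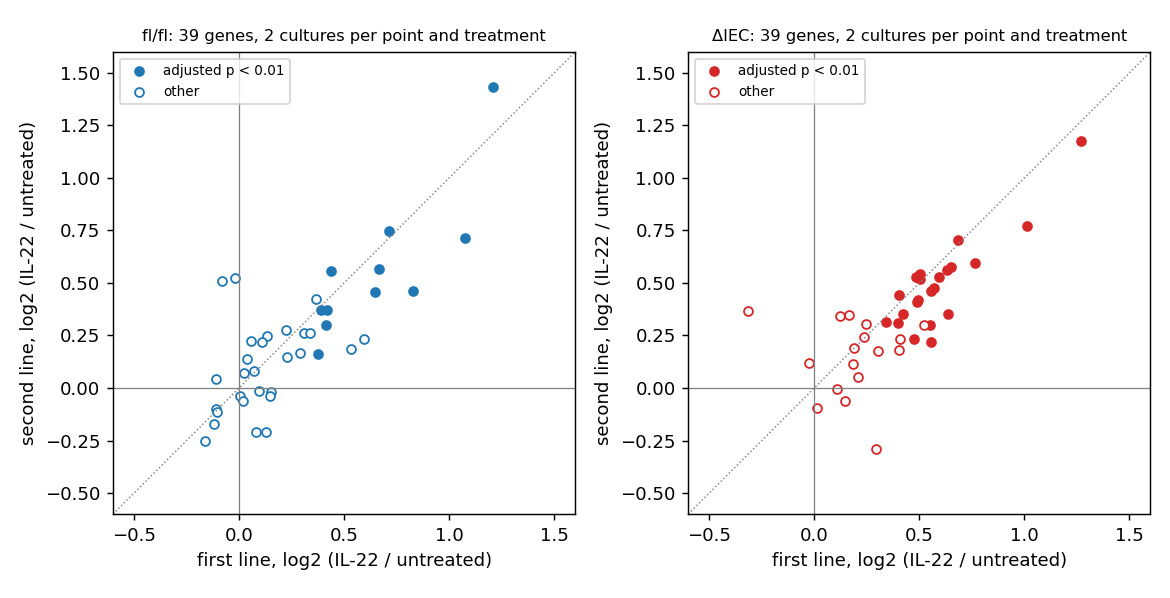
Log2 ratio of mean CPM with IL-22 to mean CPM without, in the first (horizontal) and second (vertical) organoid line of each genotype, for the 39 tested members, with the dotted line marking equal change. Filled points, members with an adjusted p under 0.01 in that genotype, lie above 0 on both axes in both panels, and Xbp1 is the point farthest out.

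The larger number of calls in ΔIEC organoids was not matched by a tested difference between genotypes. In the interaction, the difference of the ΔIEC and fl/fl responses, 0 of 39 members passed an adjusted p under 0.01 with edgeR, where 0.0159% of all genes did, 0.00796% in each direction, and 0 passed with DESeq2 or limma-voom. At an unadjusted p under 0.05 there were 8 members (Kdelr2, Spcs2, Herpud1, Pdia4, Dnajc3, Ssr3, Hyou1 and Canx), all with the larger value in ΔIEC organoids, beside 7.26% of all genes. The lowest unadjusted p was 0.00474, for Kdelr2 (difference 0.31 ± 0.10 on the log2 scale, adjusted p = 0.431, edgeR). In all, 31 of 39 differences were positive, against 54.8% of all genes. Each of the 11 members called in ΔIEC organoids alone was also positive in fl/fl, and 4 of them (Dnajb11, Eif2ak3, Ostc and Sec61b) had an adjusted p under 0.05 there. For Xbp1 the difference was -0.10 ± 0.12 and for Hspa5 -0.02 ± 0.10. With the line as a replicate block, 0 members passed and 15 had an unadjusted p under 0.05 (edgeR), beside 1661 of all 12559 genes. Limma-voom gave 12 members with such a p, beside 1379 of all genes.

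Loss of Atg16l1 was compared next, first without IL-22. In untreated cultures 6 members were higher in ΔIEC than in fl/fl organoids and 2 were lower, where 9.76% of all genes were called, 3.78% higher and 5.98% lower. Of the 6 that were higher, 5 belong to the HSP70 and HSP90 chaperones and cofactors and 1 is Sec61a1. Lower were Ern1 and Edem1, a sensor and a degradation gene. With IL-22, 17 members were higher and 2 lower, where 19.8% of all genes were called, 9.91% higher and 9.84% lower, and the 2 were again Ern1 and Edem1. All ΔIEC cultures lay above all fl/fl cultures for 13 members and below for 2 without IL-22, where 10.6% and 12.6% of all genes did so, and for 21 and 3 with IL-22, where 15.4% and 14.2% did. The 2 genotype comparisons share no culture but share their lines.

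Creld2 (ENSMUSG00000023272.3, chr15:88819646-88826683) had the largest genotype difference. Its level was 18.4, 19.9, 26.7 and 20.9 CPM in untreated fl/fl and 38.4, 41.1, 40.2 and 44.9 CPM in untreated ΔIEC cultures. With IL-22 it was 30.9, 37.2, 29.3 and 36.3 CPM in fl/fl and 61.6, 73.6, 55.9 and 72.6 CPM in ΔIEC cultures. Every untreated ΔIEC culture thus lay above every IL-22–treated fl/fl culture. The genotype difference was 0.95 ± 0.13 on the log2 scale without IL-22 (adjusted p = 7.08e-05, edgeR) and 0.98 ± 0.12 with it (adjusted p = 7.51e-06).

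Sdf2l1 (ENSMUSG00000022769.7, chr16:17130138-17132383) differed by genotype, and its IL-22 change did not pass. It was at 36.5, 43.9, 38.1 and 38.5 CPM in untreated and 43.6, 41.4, 34.5 and 31.8 CPM in treated fl/fl cultures. In ΔIEC cultures it was at 54.9, 64.5, 73.6 and 64.0 CPM untreated and 55.9, 90.6, 50.2 and 62.2 CPM with IL-22. All ΔIEC cultures exceeded all fl/fl cultures, with differences of 0.70 ± 0.15 (adjusted p = 0.00362, edgeR) and 0.79 ± 0.15 (adjusted p = 0.000657). Dnajb11 (ENSMUSG00000004460.16, chr16:22857845-22879634), which forms a complex with it, was at 84.7, 76.8, 69.4 and 62.6 CPM in untreated fl/fl and 124, 109, 107 and 98.0 CPM in untreated ΔIEC cultures. With IL-22 Dnajb11 was at 110.5, 97.5, 87.1 and 89.6 CPM in fl/fl and 179.8, 164, 139 and 147 CPM in ΔIEC cultures. The genotypes did not overlap at either treatment (differences 0.58 and 0.72, adjusted p = 0.00121 and 5.92e-05, edgeR).

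Hyou1 (ENSMUSG00000032115.14, chr9:44379490-44392369) was at 172, 175, 199 and 182 CPM in untreated fl/fl and 239, 242, 219 and 221 CPM in untreated ΔIEC cultures. With IL-22 it was at 228, 223, 213 and 214 CPM in fl/fl and 341, 341, 299 and 341 CPM in ΔIEC cultures. All ΔIEC cultures were above the fl/fl ones at each treatment, by 0.34 ± 0.07 (adjusted p = 0.00249, edgeR) and 0.59 ± 0.07 (adjusted p = 7.51e-06). Manf (ENSMUSG00000032575.16, chr9:106838312-106891979), a secreted and ER-resident stress protein, was at 73.0, 74.0, 86.6 and 68.2 CPM in untreated fl/fl and 101, 93.5, 95.7 and 89.7 CPM in untreated ΔIEC cultures. With IL-22 Manf was at 101, 95.1, 99.5 and 101 CPM in fl/fl and 134, 141, 129 and 136 CPM in ΔIEC cultures. Its genotypes were apart at both treatments as well (differences 0.34 and 0.45, adjusted p = 0.00439 and 0.000194, edgeR). Sec61a1, with the values above, differed by 0.31 and 0.43 (adjusted p = 0.0038 and 0.000132).

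Ern1 (ENSMUSG00000020715.9, chr11:106394650-106487852), which encodes IRE1α, was lower in ΔIEC organoids. It was at 62.8, 57.9, 37.2 and 49.8 CPM in untreated fl/fl and 29.9, 37.6, 35.8 and 31.6 CPM in untreated ΔIEC cultures, where the lowest fl/fl culture lay just under the highest ΔIEC culture. With IL-22 Ern1 was at 53.8, 60.3, 64.6 and 59.3 CPM in fl/fl and 34.0, 39.5, 48.7 and 36.8 CPM in ΔIEC cultures, without overlap. The differences were -0.64 ± 0.14 (adjusted p = 0.00333, edgeR) and -0.58 ± 0.13 (adjusted p = 0.00269). Edem1 (ENSMUSG00000030104.9, chr6:108828641-108859356) was at 142, 134, 121 and 125 CPM in untreated fl/fl and 96.0, 100.4, 95.3 and 114 CPM in untreated ΔIEC cultures, and at 131, 126, 136 and 117 and 116, 102, 99.1 and 101 CPM with IL-22. Its genotypes did not overlap at either treatment (differences -0.37 and -0.29, adjusted p = 0.00352 and 0.00989, edgeR), and the second call is close to the threshold. Xbp1, the direct substrate of IRE1, differed by -0.06 ± 0.09 untreated and -0.15 ± 0.08 with IL-22, neither past the threshold.

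The 11 further members that were higher in ΔIEC organoids with IL-22, and not called without it, came from 5 roles. They were Hsp90b1 and Dnajc3, Calr, Pdia3 and Pdia4, Herpud1, and Sec61b, Ssr1, Spcs2, Ostc and Kdelr2. Pdia3 (ENSMUSG00000027248.13, chr2:121413775-121438687) was at 675, 649, 604 and 590.3 CPM in fl/fl and 1136, 920.3, 786 and 869.9 CPM in ΔIEC cultures with IL-22, and at 548, 581, 560.3 and 519 and 733, 669.8, 689.6 and 655 CPM without. Pdia4 (ENSMUSG00000025823.9, chr6:47796141-47813430) was at 127, 133, 133 and 116 CPM in fl/fl and 194, 185, 167 and 186 CPM in ΔIEC cultures with IL-22, and at 110.5, 124, 128 and 127 and 154, 144, 142 and 142 CPM without. The genotypes of both genes were apart with and without IL-22, with treated differences of 0.56 ± 0.09 and 0.52 ± 0.07 and untreated ones of 0.32 ± 0.09 and 0.25 ± 0.07 (untreated adjusted p = 0.0189 and 0.0199, edgeR). Calr differed by 0.42 ± 0.07 with IL-22 (adjusted p = 0.000213, edgeR). Hspa5 was higher by 0.26 and 0.24 without and with IL-22, short of the threshold (adjusted p = 0.015 and 0.0157).

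**Figure D5:**
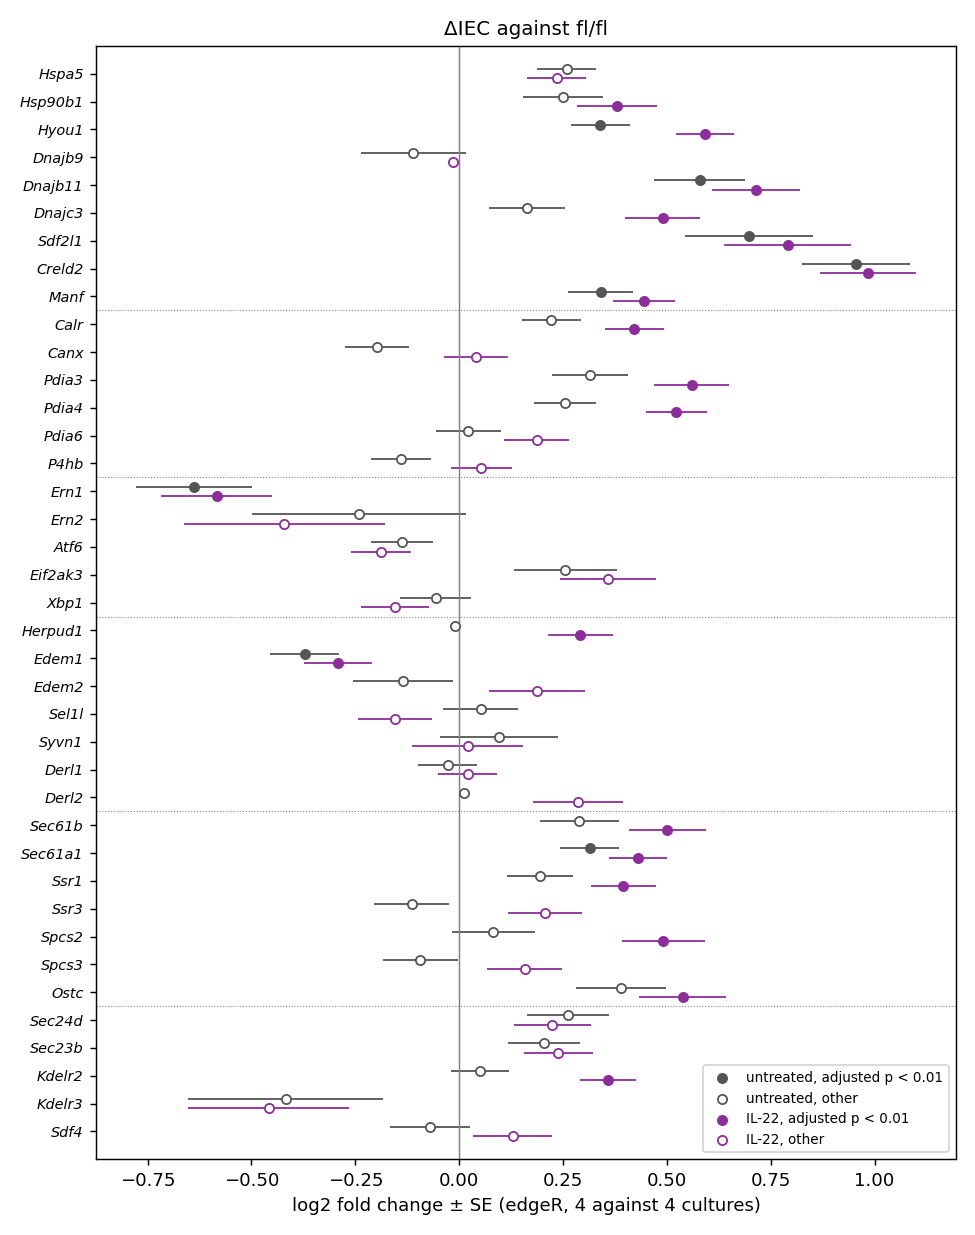
Log2 fold change of ΔIEC against fl/fl organoids (horizontal axis) for each tested member by role, untreated (grey) and with IL-22 (purple), as the edgeR estimate with its SE from 4 against 4 cultures. Filled points had an adjusted p under 0.01: to the right of 0 there are 6 untreated and 17 with IL-22, and to the left Ern1 and Edem1 in both.

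Genotype rests on 2 lines each. Leaving out single cultures lost 6 of the 8 untreated calls at least once (all but Creld2 and Dnajb11, adjusted p up to 0.0217, edgeR) and 4 of the 19 treated ones (Edem1, Herpud1, Hsp90b1 and Ern1, adjusted p up to 0.0388). For all 8 untreated and all 19 treated calls, both ΔIEC lines lay on the same side of both fl/fl lines in mean CPM. The choice of called members by the same cultures favours this, and members that were not called could show it too. With the cultures of a line summed, 0 members passed untreated (14 at an unadjusted p under 0.05) and 1, Creld2, passed with IL-22 (20 at an unadjusted p under 0.05). Of 13871 genes in that fit, 10 passed untreated and 188 with IL-22, and 2936 and 4232 had an unadjusted p under 0.05. With limma-voom and the line as a random effect 3 passed untreated (Creld2, Dnajb11 and Hyou1) and 16 with IL-22, all 16 of them among the 19. By limma-voom 777 and 1822 of all 12559 genes passed. Each line belongs to 1 genotype, so a line could not be fitted as a fixed term in these comparisons.

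Of the 113 other genes of the pathway, 109 were tested. With IL-22, 21 rose in fl/fl and 33 in ΔIEC organoids, where 10.6% and 9.83% of all genes did. In either genotype 0 of the 109 were lower, where 10.2% and 7.65% of all genes were. At an unadjusted p under 0.05, 10 of the 109 were lower in fl/fl and 2 in ΔIEC organoids. Their median log2 fold changes were 0.08 and 0.19 over all 109. In fl/fl organoids the 4 with the smallest p all belong to stress signalling: Atf4, the transcription factor of the PERK arm (log2 fold change 0.57 ± 0.06, adjusted p = 1.06e-06, edgeR), Ppp1r15a, the phosphatase subunit GADD34 (1.29 ± 0.17), and the ATF4 targets Trib3 (0.93 ± 0.13) and Atf3 (0.91 ± 0.14). In ΔIEC organoids they were Atf4 (0.64 ± 0.06, adjusted p = 2.42e-07, edgeR), the mucin-folding isomerase Agr2 (0.78 ± 0.09), the signal recognition particle receptor Srpr (0.52 ± 0.07) and Trib3 (0.92 ± 0.13). By role, stress signalling genes rose in 8 of 19 cases in each genotype, ER-Golgi transport genes in 4 of 21 in fl/fl and 10 of 21 in ΔIEC organoids, and translocation and glycosylation genes in 3 of 21 and 7 of 21. Folding and redox genes rose in 3 of 28 and 4 of 28, and degradation genes in 3 of 20 and 4 of 20.

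Between genotypes, 3 of these 109 were higher and 4 lower in untreated ΔIEC organoids, where 3.78% and 5.98% of all genes were. With IL-22, 18 of the 109 were higher and 6 lower, where 9.91% and 9.84% of all genes were. The 4 lower in untreated cultures were Agr2 (-0.59 ± 0.09), Ddit3, the stress transcription factor CHOP (-0.98 ± 0.19), the coat gene Sec23a (-0.37 ± 0.07) and the lectin Erlec1 (-0.64 ± 0.13). The 3 higher ones were Rpn1, an oligosaccharyltransferase subunit (0.33 ± 0.07), the ubiquitin ligase Rnf139 (0.43 ± 0.10) and Atf6b, the paralog of Atf6 (0.34 ± 0.08). With IL-22, the 4 higher genes with the smallest p were Rpn1 (0.51 ± 0.07), the cargo lectin Lman2 (0.52 ± 0.08), Atf6b (0.53 ± 0.08) and the glucosidase Mogs (0.70 ± 0.11). The 4 lower ones with the smallest p were Ddit3 (-1.19 ± 0.18, adjusted p = 8.52e-05, edgeR), Atf3 (-0.80 ± 0.13), the transcription factor Creb3l1 (-0.995 ± 0.18) and the ER oxidase Ero1l (-0.85 ± 0.15). In the interaction 0 of 109 passed with edgeR, and 14 had an unadjusted p under 0.05, where 7.26% of all genes did.

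Markers of other cell types moved with the same comparisons, beside the enterocyte values given above. The 8 goblet markers summed to 1958 to 3181 CPM untreated and 1819 to 2808 CPM with IL-22 in fl/fl cultures, and to 1418 to 1896 and 823 to 1481 CPM in ΔIEC cultures. Single goblet markers went both ways with IL-22, with 2 called higher and 2 lower in fl/fl, and 1 and 3 in ΔIEC organoids. Muc2 averaged 75.3 CPM untreated and 147 CPM with IL-22 in fl/fl, and 40.6 and 89.0 CPM in ΔIEC cultures. The 8 Paneth markers summed to 5665 to 8147 and 7251 to 9729 CPM in fl/fl, and to 3179 to 4172 and 3909.8 to 4650.4 CPM in ΔIEC cultures. Of these 8, 1 was called higher with IL-22 and 0 lower in each genotype. The 7 enteroendocrine markers summed to 374 to 640.0 and 512 to 716 CPM in fl/fl, and to 224 to 398 and 230.5 to 510.1 CPM in ΔIEC cultures, with 2 of 7 lower by the test in untreated and 3 in treated ΔIEC organoids. Both without and with IL-22, the summed goblet and Paneth levels were lower in all ΔIEC than in all fl/fl cultures. Without IL-22, 3 of 8 goblet and 5 of 8 Paneth markers were called lower, where 5.98% of all genes were. With IL-22, 5 of 8 goblet and 7 of 8 Paneth markers were called lower, where 9.84% of all genes were. At either treatment 0 of these markers were called higher. The 6 stem cell markers summed to 545 to 747 and 360.1 to 390.1 CPM in fl/fl, and to 1008 to 1166 and 441 to 578 CPM in ΔIEC cultures. By genotype they were mixed. Of the 6, 3 were called higher and 1 lower in untreated ΔIEC organoids, and 3 and 2 with IL-22. Olfm4 averaged 144 CPM in untreated fl/fl and 584 CPM in untreated ΔIEC cultures, and Lgr5 averaged 101 and 68.7 CPM. The 6 proliferation markers summed to 1062 to 1430 and 775 to 949.7 CPM in fl/fl cultures, and to 1479 to 1627 and 1187 to 1509 CPM in ΔIEC cultures. No marker of these lists was at 0. The part of these shifts in the results was not tested.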

How the data were processed

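Values are read counts per gene, deposited by the authors without normalization. According to the study's methods and the labels, the authors trimmed paired-end reads with cutadapt, aligned them to mm10/GRCm38 with TopHat2 and counted with HTSeq. The strand setting and annotation release are not given in the sources used here, so reads of overlapping and antisense genes may not be separable. The library kit is TruSeq RNA v2 in the labels but stranded total RNA in the methods. Lines for reads not assigned to a gene (61.7% to 63.7% of the table's reads) were left out. Groups came from the labels. The time of IL-22 treatment came from the paper.

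Of 49585 gene identifiers, 49326 matched a GENCODE mouse M21 symbol without the version, and positions and union exon lengths are from that annotation (GRCm38). In R 4.3.3, edgeR 4.0.16 filtered genes (filterByExpr on the 4 groups, 12559 kept), scaled by TMM and fitted 1 quasi-likelihood model with a mean per group to all 16 cultures. Tests were two-sided, with Benjamini-Hochberg adjustment over all tested genes in a comparison and a threshold of 0.01. SE is the absolute log2 fold change over the square root of F. The common biological coefficient of variation was 0.115. Depth ranged from 2135000 to 5574860 gene counts per culture. The SE values include the fitted spread between cultures. An interval from counts alone would cover counting error only. No 2 cultures of a group agreed within sampling noise. The edgeR steps were also run on simulated counts that held no line effect, so that run does not cover the shared lines.

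Alternatives were DESeq2 1.42.0, RLE scaling, no filter, an adjusted p under 0.05, summed lines, limma 3.58.1 voom with duplicateCorrelation on the line, the line as a replicate block, and each culture or line left out. Labels number the same lines in treated and untreated cultures, so the lines pair them. Deviations from group means correlated across genes at 0.263 to 0.438 within fl/fl lines against -0.435 to -0.218 between them, and at 0.0563 to 0.321 against -0.352 to -0.0779 in ΔIEC organoids. Lines are nested in genotype, so a block could be fitted for IL-22 effects and the interaction only.

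The members, the gene lists and the marker lists were chosen with earlier results of these data known. All 40 members are accounted for. Values in every culture are given for the 4 members with the smallest p in each IL-22 comparison and for those called between genotypes (at most 8 by p), and for Hsp90b1 in 1 group, added after its values were seen. Of the other pathway genes, the 4 with the smallest p past the threshold in each direction are named for IL-22, and by the same rule for genotype, added after their values were seen. Promoter windows are from RefSeq (GRCm38.p6). Protein sequences were not used here.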

Additional observations from a re-analysis of the deposited data

Results flagged for a closer look

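In 6 of 156 sets of 4 cultures tested, 1 culture lay apart from the other 3, by a gap over range above Dixon's 95% critical value. Chance alone gives about 1 in 20 such sets. All 6 were in IL-22–treated ΔIEC cultures. In replicate 1, Hsp90b1 was at 1076 CPM (the others at 738 to 754), Ssr3 at 671 CPM (508 to 526), Kdelr2 at 211 CPM (182 to 186) and Edem1 at 116 CPM (99.1 to 102), each above the rest. In replicate 3, Hyou1 was at 299 CPM (341 in the rest) and Calr at 919.9 CPM (1011 to 1024), each below the rest. Without replicate 1, Hsp90b1 lost its IL-22 call in ΔIEC organoids (log2 fold change 0.21, adjusted p = 0.0143, edgeR), whereas Ssr3 (0.41, adjusted p = 0.000461) and Kdelr2 (0.34, adjusted p = 0.000684) passed.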

How the results depend on the processing

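No member changed direction past the threshold under any alternative run. Counts of members called (11 and 22 by IL-22 in fl/fl and ΔIEC organoids, 0 in the interaction, 8 untreated and 19 treated between genotypes) stayed within 1.5 times under DESeq2, RLE scaling and no filter on low counts. An adjusted p under 0.05 gave 17 by IL-22 in fl/fl organoids and 14 between untreated genotypes, where 4057 and 2559 of 12559 genes were called. Summing the cultures of a line gave 4 and 6 by IL-22, 0 untreated and 1 treated between genotypes, with fewer samples in the fit. Of 13871 genes, 543, 635, 10 and 188 were called there. Limma-voom gave 3 between untreated genotypes, where 777 of 12559 genes were called, and the cause was not tested. With the line as a replicate block, the pairing that the labels give, IL-22 called 16 members in fl/fl and 27 in ΔIEC organoids and the interaction 0. Of all 12559 genes the block called 3837, 3198 and 56. Besides the ERAD genes named, it added Dnajb11, Sec61b and Ostc in fl/fl and P4hb, Ssr1 and Spcs2 in ΔIEC organoids, and it changed no other call.

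Leaving out 1 culture or line gave 5 to 14 members by IL-22 in fl/fl, 10 to 24 in ΔIEC organoids, 0 to 0 in the interaction, 2 to 11 between untreated and 9 to 19 between treated genotypes. Of all genes, these runs called 1083 to 2796, 913 to 2491, 0 to 4, 445 to 1639 and 950 to 2672 in the same order. The IL-22 count of members fell to 5 in fl/fl without its first line and to 10 in ΔIEC organoids without either of its lines. All genes called fell from 2608 to 1627 in that fl/fl run. In ΔIEC organoids they fell from 2195 to 1174 without the first line and to 913 without the second. Between untreated genotypes the count of members fell to 3 without untreated fl/fl replicate 1 or 2 or ΔIEC replicate 2, to 4 without ΔIEC replicate 1, to 5 without ΔIEC replicate 3, and to 2 to 5 without any 1 line. All genes called in these single-culture runs were 779, 677, 772, 633 and 845 in that order, beside 1226 with all cultures. Without 1 line they were 445 to 1639. Between treated genotypes the count of members fell to 10 without the second fl/fl line and to 9 without the first ΔIEC line. All genes called in these runs were 1856 and 950, beside 2481 with all cultures. Edem1 was lost between treated genotypes without any of 12 single cultures, Sdf4 by IL-22 in ΔIEC organoids without any of 10, Herpud1 between treated genotypes without any of 9, Hsp90b1 by IL-22 in ΔIEC organoids without any of 8 and Hyou1 by IL-22 in fl/fl without any of 7. At this depth Derl3 was too rare to test, and small changes of Ern2 and Kdelr3 could not be resolved.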
